A study of Mus musculus with 12 samples.

Results

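The albumin family is a group of related genes on mouse chromosome 5 that code for carrier proteins of blood plasma. It was described here through 4 members, chosen by name: Alb, Afp, Afm and Gc, out of 21887 protein-coding genes. Each was taken with 1 kb on both sides, and the space between the genes was included. The span held 11 of the 28717 peaks listed for HEPA1-6 and 6 of the 14908 peaks listed for the samples labelled liver (the liver list), and 5 and 4 of them, respectively, lay at a member gene. The peaks come from a series on R-loops and editing by vectors of adeno-associated virus (AAV), for which Alb is a target in liver. R-loops were enriched with the antibody S9.6 from genomic DNA of HEPA1-6, a single mouse hepatoma cell line, and of liver from C57/Bl6 mice. All samples are labelled wild type and untreated, and the labels give neither age, sex nor number of the mice. The labels list 12 libraries in 6 groups of 2, namely S9.6 precipitate, the same with RNase H1 treatment, and input for each source. The peaks are 1 list per source of a merged precipitate against input. Libraries with RNase H1 treatment, which removes the RNA of a hybrid, were not analysed here, so the sensitivity of these peaks to RNase H1 is not known. With 1 list per source there is no replicate, no spread and no test between sources, and the sequencing depth is not known.

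An R-loop forms when nascent RNA pairs again with its template strand behind the polymerase and leaves the other DNA strand unpaired. R-loops are known above all from the starts and ends of transcribed genes and are favoured where the RNA strand is rich in G. Albumin is the most abundant plasma protein, made in hepatocytes, and carries fatty acids, hormones and drugs. Alpha-fetoprotein, from Afp, is its counterpart in the fetus, is silenced in liver after birth and returns in many hepatomas. Afamin, from Afm, binds vitamin E and Wnt proteins. Gc codes for the vitamin D binding protein, which also binds actin. Alb, Afp and Afm lie next to each other on the plus strand, and Gc lies apart from them on the minus strand. In liver, AAV donor vectors without a nuclease have been aimed at the end of the Alb coding sequence, so that a transgene is expressed from the albumin promoter.

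The members divided evenly. Alb and Afp held peaks in both lists, and Afm and Gc held none in either. The background was 42.0% of protein-coding genes with a HEPA1-6 peak, 29.7% with a liver peak and 27.8% with a peak in both, so 2 of 4 is close to the background in HEPA1-6, and 4 genes are too few to set apart from it in either list. The members without a peak were the longer ones, Gc with 40.4 kb and Afm with 34.6 kb, against 15.7 kb for Alb and 18.2 kb for Afp. Among genes of 0.5 to 2 times the length of Gc, 50.3% held a HEPA1-6 peak and 34.3% a liver peak. For genes as long as Alb on the same rule these shares were 48.7% and 32.9%.

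**Figure D1:**
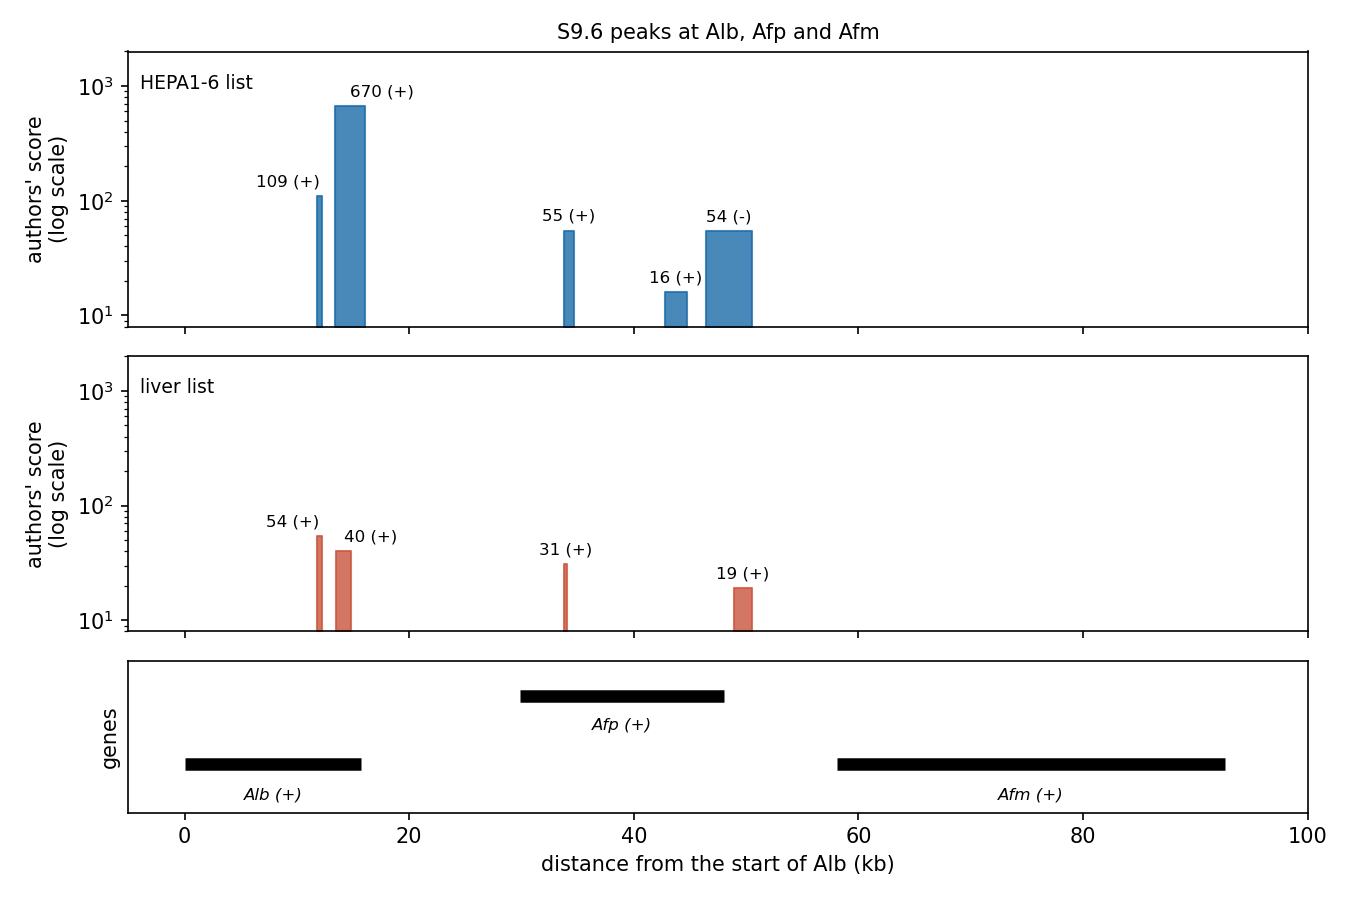
Peaks at Alb, Afp and Afm by distance from the start of Alb in kb, in the HEPA1-6 list (upper panel) and the liver list (middle panel), with the genes below; each box is 1 peak, its height is the authors' score on a log scale and its strand stands in brackets. Scores can be read within a panel only. Both peaks at Alb lie near the end of the gene, the last Afp peak reaches past the end of that gene, and no box lies over Afm.

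Alb (chr5:90460870-90476602, GRCm38, plus strand) held 2 peaks in each list, all on the strand of the gene. The first, chr5:90472694-90473107, was the same 414 bp interval in both lists. The authors' score of it was 109 in HEPA1-6, where 97.8% of peaks scored lower, and 54 in the liver list, where 92.6% did. The score is a whole number per peak of unstated scale, with a list median of 21 in HEPA1-6 and 22 in the liver list, and it was read only within a list. The second Alb peak lay 1195 bp further on in HEPA1-6, at chr5:90474303-90476903. It was 2601 bp wide and scored 670, with 42 of all 28717 peaks higher. In the liver list the second peak, chr5:90474371-90475665, was 1295 bp wide and scored 40, with 2079 peaks higher. The higher-scoring peak was thus the second in HEPA1-6 and the first in the liver list, where the scores of 54 and 40 lie closer together.

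By its top score Alb ranked 16th among the 9191 protein-coding genes with a HEPA1-6 peak. Among 6491 genes with a liver peak it ranked 903rd. Medians of the top score over these genes were 34 and 28. The high rank in HEPA1-6 rests on the second peak alone. Peaks covered 17.0% of Alb with its flanks there, and 4545 genes had a larger covered share. The covered share in the liver list was 9.64%.

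Both Alb peaks lay in the last part of the gene. The first began 11.8 kb after the start, at 75.2% of the gene length. The second began at 85.4% of the length in HEPA1-6 and at 85.8% in the liver list. In HEPA1-6 it ran 301 bp past the annotated end of Alb, and in the liver list it stopped 937 bp before that end. The gene table used here gives gene boundaries but no exons, so exons, introns and untranslated regions under the peaks were not told apart, and the stop codon at which editing vectors are aimed was not placed relative to them. No peak lay within 1 kb of the start of Alb in either list. Of genes with a HEPA1-6 peak and a known strand, 62.8% had a peak within 1 kb of a start and 56.2% within 1 kb of the end. The liver list had 62.0% and 39.5%. A peak at the end and none at a start, as at Alb, was found in 20.1% of such genes in HEPA1-6 and in 17.5% in the liver list. Among genes with a peak of 0.5 to 2 times the length of Alb the shares were 24.6% and 22.1%, so the position of the Alb peaks is a common one.

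Afp (chr5:90490714-90508907, plus strand) held 3 peaks in HEPA1-6 and 2 in the liver list, all scoring below the first Alb peak of the same list. The first Afp peak began at the same base in both lists, 3.96 kb after the start of the gene. In HEPA1-6 it spanned chr5:90494675-90495532 (858 bp) and scored 55, above 92.1% of that list. In the liver list it spanned chr5:90494675-90494908 (234 bp) and scored 31, above 73.7% of that list. A second peak, chr5:90503655-90505564, was called in HEPA1-6 only, with a score of 16 that 24.7% of peaks fell below. The depth and the peak threshold are not known and there is no replicate list, so its absence from the liver list shows no difference between the sources.

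The last Afp peak differed in strand between the lists. In HEPA1-6 it spanned chr5:90507341-90511372, was 4032 bp wide, scored 54 and was given the minus strand, opposite to Afp. It began 1566 bp before the end of Afp and ran 2465 bp past it. The liver peak, chr5:90509825-90511372, ended at the same base, scored 19 and was given the plus strand. It lay wholly downstream, beginning 918 bp past the end of Afp, and was counted at Afp only because of the 1 kb flank. Without a flank Afp held 1 liver peak. Of peaks with a strand that overlap a single gene of known strand, 6.59% in HEPA1-6 and 9.36% in the liver list had the strand opposite to the gene. How the authors gave a strand to a peak is not stated, and the RefSeq table has no gene other than Afp under this peak. Opposite strands were given to 14.0% of all overlapping pairs in which both peaks had a strand, so such a pair is not rare. Peaks covered 26.4% of Afp with its flanks in HEPA1-6 and 1.57% in the liver list. With flanks of 5 kb, which take in the whole last peak, the shares were 24.1% and 6.32%.

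**Figure D2:**
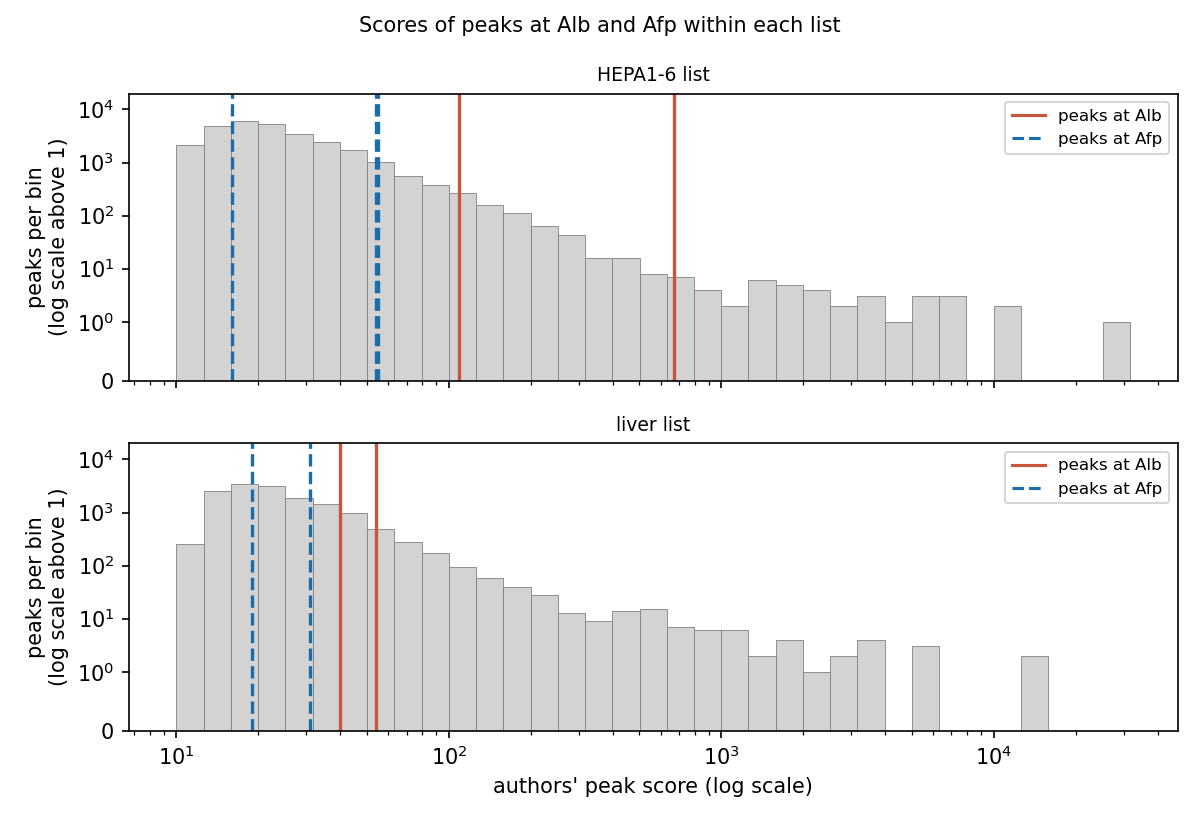
Number of peaks by the authors' score (both axes on a log scale) in the HEPA1-6 list (upper panel) and the liver list (lower panel), with the scores of peaks at Alb as solid lines and at Afp as dashed lines. The second Alb peak of HEPA1-6, at 670, stands in the sparse upper tail, the Afp peak at 16 lies below the list median of 21, and the 4 liver peaks lie between 19 and 54.

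Afm (chr5:90518949-90553544, plus strand) and Gc (chr5:89417511-89457898, minus strand) held no called peak in either list, of which the depth is not known. The nearest peak before Afm was the last Afp peak, which ended 7577 bp upstream in both lists. After Afm the nearest HEPA1-6 peak began 51.4 kb away, in Rassf6, a gene of a Ras association domain protein, and the nearest liver peak 380 kb away. Albfm1, a further gene of the albumin family just after Afm, held no peak in either list. It is not among the 4 members and was named after its values were seen. Neither list had a peak at 56.1% of protein-coding genes and at 47.8% of genes of 0.5 to 2 times the length of Gc, so a gene without a peak is common in these lists.

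Gc lay in a long stretch without peaks. In HEPA1-6 the nearest peak on one side was 531 kb and on the other 768 kb away. The peak-free stretch of 1.34 Mb held 4 whole protein-coding genes, namely Gc, Npffr2 (a neuropeptide receptor), Adamts3 (a secreted metalloprotease) and Cox18 (a factor in the assembly of cytochrome c oxidase). Of 28688 gaps between neighbouring HEPA1-6 peaks, 391 (1.36%) were longer. In the liver list the stretch around Gc measured 1.40 Mb and held 8 whole protein-coding genes, and 2.52% of gaps were longer. The median gap was 5.52 kb and 16.2 kb, respectively. These lengths describe the surroundings of Gc, and a long gap is more likely than a short one to hold any given gene.

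The starts of the members were then compared with a neighbouring start that lay under a peak. Between Gc and Alb, the interval chr5:90364668-90367114 was called alike in both lists, on the plus strand, with a score of 115 in HEPA1-6 and 64 in the liver list. It covered the start of Ankrd17 that the RefSeq promoter table gives, at position 90366185 on the minus strand, and the start of the noncoding RNA gene Gm9958 on the plus strand. Ankrd17 codes for an ankyrin repeat protein. That start lies inside the gene, whose outer boundary at 90368693 lies 1579 bp beyond the peak, and Gm9958 lies wholly within Ankrd17 on the opposite strand. The 250 bases before the start of Alb (chr5:90460620-90460869, plus strand), Afp (chr5:90490464-90490713, plus strand) and this inner start of Ankrd17 (chr5:90366186-90366435, minus strand) are shown because they contrast the starts of the members that held peaks elsewhere with a start that lay under a peak. They are from RefSeq (GRCm38.p6), 5′ to 3′ on the strand of the gene, and capitals mark CpG dinucleotides.
Alb: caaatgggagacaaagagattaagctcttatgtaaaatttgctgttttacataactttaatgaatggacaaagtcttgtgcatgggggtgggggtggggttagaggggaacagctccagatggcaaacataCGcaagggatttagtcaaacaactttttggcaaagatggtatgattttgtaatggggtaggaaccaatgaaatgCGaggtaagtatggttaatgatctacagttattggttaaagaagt
Afp: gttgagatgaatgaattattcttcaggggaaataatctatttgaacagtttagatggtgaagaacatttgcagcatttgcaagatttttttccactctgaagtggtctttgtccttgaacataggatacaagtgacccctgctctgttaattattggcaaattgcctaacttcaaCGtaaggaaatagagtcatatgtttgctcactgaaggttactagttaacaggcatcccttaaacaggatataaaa
Ankrd17: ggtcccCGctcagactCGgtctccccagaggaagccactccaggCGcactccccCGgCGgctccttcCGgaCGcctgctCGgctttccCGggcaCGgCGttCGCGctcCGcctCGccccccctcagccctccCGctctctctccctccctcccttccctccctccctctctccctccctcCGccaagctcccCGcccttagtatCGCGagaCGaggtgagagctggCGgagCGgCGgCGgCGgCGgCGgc
The upstream sequence of Alb held 2 CpG and 39.2% G+C, that of Afp 1 CpG and 36.0% G+C, and that of Ankrd17 28 CpG and 74.0% G+C. Afm had 1 CpG and 33.2% G+C, Gc had 0 CpG and 42.0% G+C, and Gm9958 had 18 CpG and 66.0% G+C. The median over 32807 such windows was 52.4% G+C and 6 CpG, so all 4 members lay below it on both measures.

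None of the 4 member promoters, taken as 250 bases before to 50 bases after the start, lay under a peak in either list. Over all promoter windows, 15.3% lay under a HEPA1-6 peak, 9.84% under a liver peak and 8.90% under both. The share followed base composition. Where the upstream sequence had under 40% G+C, the class of Alb, Afp and Afm, 1.37% of windows (95% Wilson interval 1.05 to 1.79%) lay under a HEPA1-6 peak and 0.648% (0.439 to 0.954%) under a liver peak. In the class of Gc, 40 to 50% G+C, the shares were 5.00% and 2.94%. In the class of Ankrd17, 70% G+C and above, they were 37.3% (35.6 to 39.1%) and 24.8% (23.3 to 26.3%). Windows with the base composition of the members were thus rarely under a peak, and most windows of these classes, like those of the 4 members, had none. The classes pool the starts of all genes, active or silent, and transcription was not known here. Whether base composition bears on the absence of a peak at the members was not tested. The intervals cover counting error over windows only, and neighbouring windows can share a peak.

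**Figure D3:**
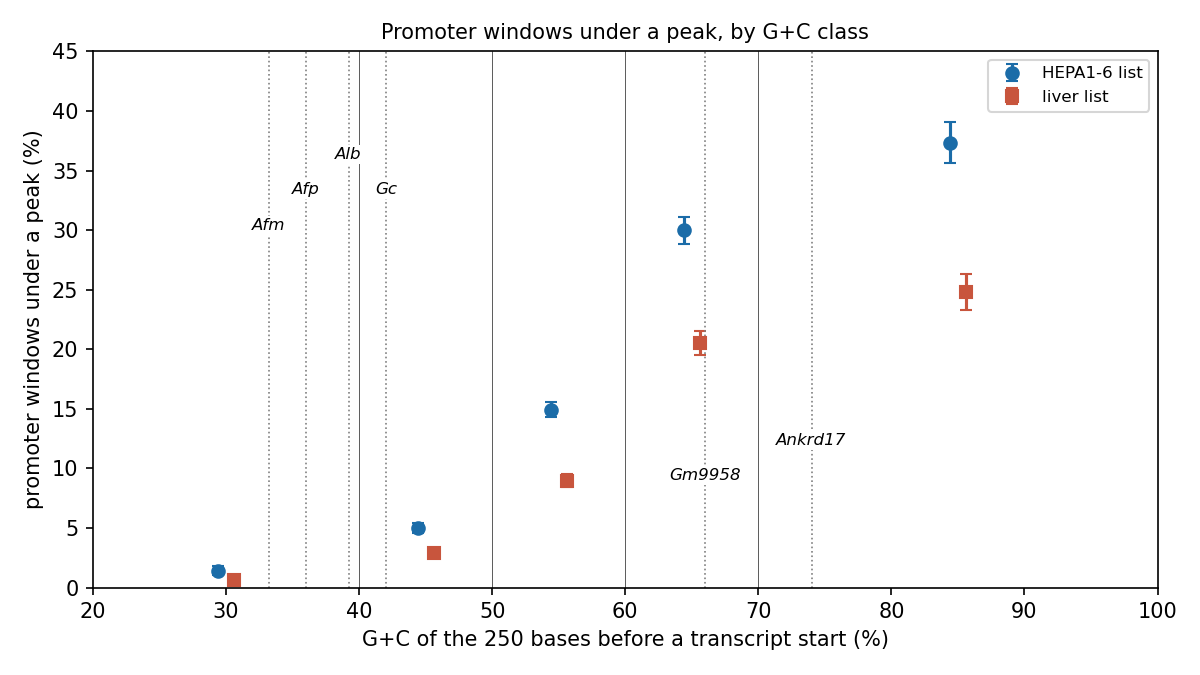
Percent of promoter windows under a peak by class of G+C in the 250 bases before the start (under 40%, 40 to 50%, 50 to 60%, 60 to 70%, 70% and above; thin lines part the classes), with points for each list at the class middle and 95% Wilson intervals over windows; dotted lines mark the named genes. The share rises from 1.37% to 37.3% in HEPA1-6 and from 0.648% to 24.8% in the liver list, and the 4 members lie in the lowest 2 classes.

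The strand bias of the bases differed among the members. GC skew, the difference of G and C on the strand of the gene over their sum, is positive where the nascent RNA would be rich in G. Upstream of Alb it was 0.45, from 71 G and 27 C, and 99.3% of windows had a lower value. The sequence printed for Alb holds 7 runs of 3 or more G. Skew was 0.11 upstream of Afp, -0.06 for Afm, -0.07 for Gc, -0.30 for Ankrd17 and 0.21 for Gm9958, which has 10 runs of 3 or more G. The 2 starts under the peak of both lists thus had skews of opposite sign, and the peak was given the plus strand, that of Gm9958. The start with the highest skew of the 6, Alb, had no peak. These bases lie before the annotated start.

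Short motifs were searched on both strands of the 250 bases, and were chosen after the sequences had been read. CCAAT was found in all 4 members and in 33.8% of windows, and TATAAA in Afp and Afm and in 12.4% of windows. A match of this kind is a description of the letters and not evidence of a bound factor.

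**Figure D4:**
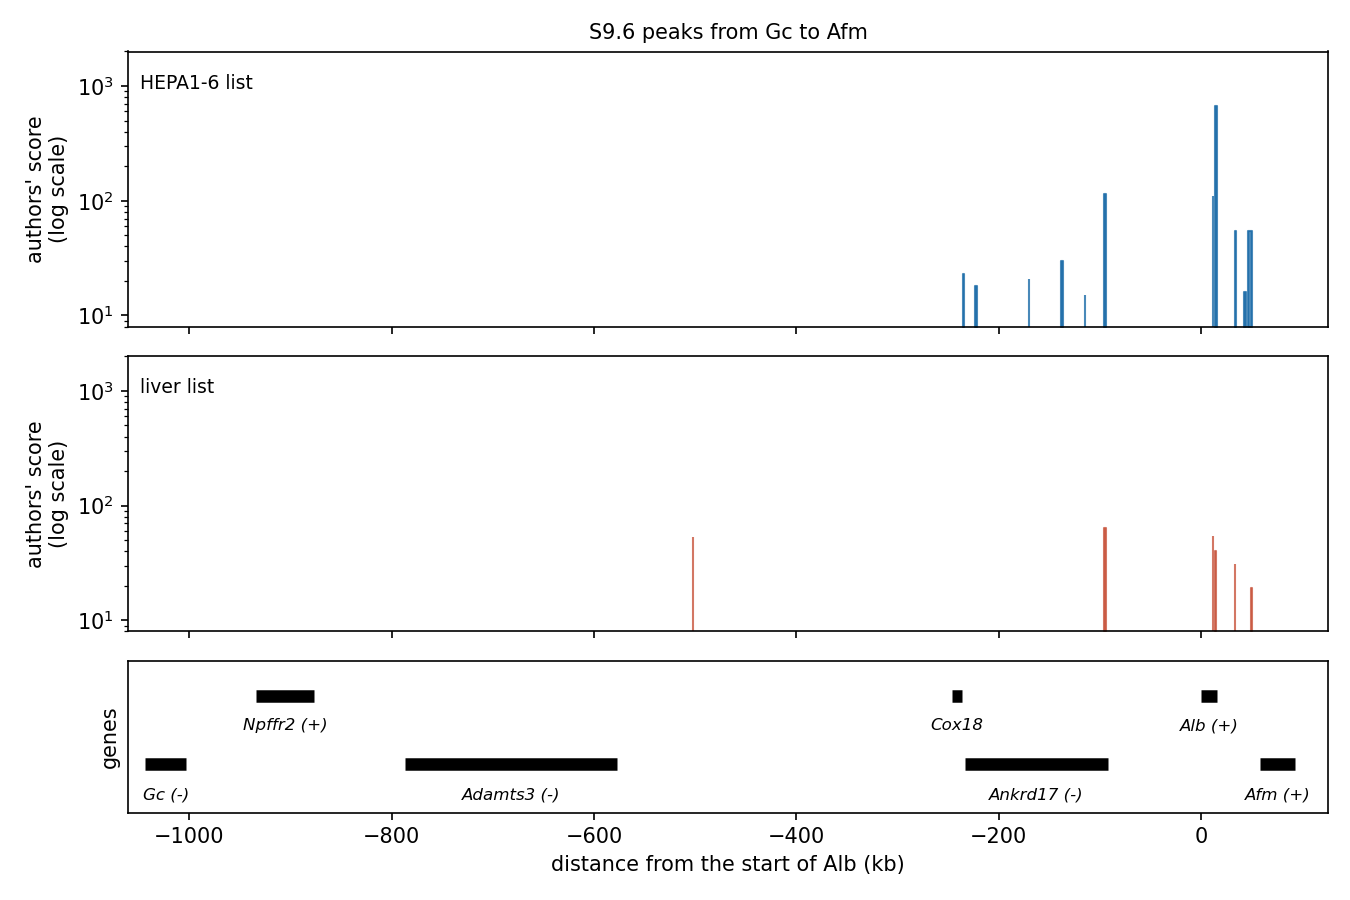
Peaks from Gc to Afm by distance from the start of Alb in kb, in the HEPA1-6 list (upper panel) and the liver list (middle panel), with the protein-coding genes below (Afp, between Alb and Afm, is not drawn); the height is the authors' score on a log scale, to be read within a panel only. All HEPA1-6 peaks overlap Ankrd17, Alb or Afp with 1 kb on both sides, and the liver list has a single further peak in the space after Adamts3.

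The space from Gc to Alb measured 1.003 Mb and held 6 HEPA1-6 peaks (5.98 per Mb) and 2 liver peaks (1.99 per Mb). Chromosome 5 as a whole had 11.8 and 6.70 peaks per Mb. All 6 HEPA1-6 peaks overlapped Ankrd17 with 1 kb on both sides, of which the 5 other than the peak at its inner start scored 15 to 30 and were on the minus strand, that of the gene. Of 12 genes lying between the members, 2 held a HEPA1-6 peak and the same 2, Ankrd17 and Gm9958, a liver peak. The other liver peak in this space, chr5:89958346-89958759, lay outside any gene, 74.7 kb from Adamts3. It was 414 bp wide, had no strand and scored 53, above 92.4% of its list. The space of 14.1 kb from Alb to Afp held no whole peak in either list, only the last 301 bp of the second HEPA1-6 peak at Alb. The space of 10.04 kb from Afp to Afm was covered to 24.5% in HEPA1-6 and to 15.4% in the liver list, in both by the last Afp peak. Beyond the members, the nearest protein-coding genes with a peak were Slc4a4, a sodium bicarbonate transporter gene, before Gc and Rassf6 after Afm, and both held a HEPA1-6 peak only, with top scores of 13 and 23.

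Over the whole span of 1.14 Mb, 5 of the 11 HEPA1-6 peaks and 5 of the 6 liver peaks overlapped a peak of the other list. At the members these were 4 of 5 and 4 of 4. The whole lists, of 28717 and 14908 peaks, formed 11455 overlapping pairs, where 1 peak can be in more than 1 pair. At most 11455 peaks of either list can thus overlap the other. The share of peaks that do so was not counted. The counts of the span therefore have no background of the same unit, and they are too few to read as a trait of the span. Of the 5 pairs in the span, 4 had the same strand, the pair at the end of Afp being the exception. With the stricter rule that the overlap make up 50% of each peak, 2 pairs remained, the first Alb peak and the peak at the inner start of Ankrd17, whose intervals are identical. The second Alb peaks fell just short, since the shared 1295 bp made up 49.8% of the HEPA1-6 peak.

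Genes that act on the members or handle their products were read from 3 lists. Among 18 regulators of Alb and Afp, 13 held a HEPA1-6 peak and 12 a liver peak, against the background of 42.0% and 29.7% of protein-coding genes. This background is not matched for gene length, and a long gene has more room for a peak. The regulators with a peak included Zbtb20, a repressor of Afp after birth, with top scores of 112 in HEPA1-6 and 52 in the liver list. It held 6 and 4 peaks over 759 kb. Cebpb, an activator in the acute phase response, had top scores of 77 and 35. Zhx2, which also represses Afp in adult liver, held 11 and 10 peaks over 145 kb, with top scores of 31 and 42. It was named after its values were seen. Nr5a2, Nr1h4, Foxa1, Cebpd and Gata6 held no peak in either list.

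Among 11 genes that handle albumin or the vitamin D carried by the Gc protein, 5 held a HEPA1-6 peak and 2 a liver peak. The background was 42.0% and 29.7% of protein-coding genes. B2m and Fcgrt code for the subunits of the receptor that returns albumin to the blood. B2m held a peak in both lists (top scores 50 and 48) and Fcgrt in HEPA1-6 only (34). Lrp2, Cubn and Amn, the receptor complex that takes up albumin and Gc protein in the kidney, held none, nor did Vdr, the vitamin D receptor. Peaks were found at 9 of 20 other secreted plasma protein genes in HEPA1-6 and at 5 in the liver list. For both sets of genes the share lay close to the background in HEPA1-6 and below it in the liver list. The genes are too few to set apart from it. The highest scores there were those of Rbp4, the retinol carrier, with 102 and 49, below the top scores of Alb in both lists. The fibrinogen genes Fga, Fgb and Fgg held no peak in either list, nor did Ttr and Apoa1, which code for other abundant plasma proteins.

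The tissue label was set against marker genes, as far as peaks, which are not expression levels, allow. Of 10 hepatocyte markers, Alb and Apob held a HEPA1-6 peak and Alb alone a liver peak. All 5 markers of dividing cells held peaks in both lists, and 0 of 19 markers of Kupffer, endothelial, stellate and bile duct cells held any. The background was 42.0% of protein-coding genes with a peak in HEPA1-6, 29.7% in the liver list and 56.1% with none in either. The name liver list follows the label alone, and what these counts say about the cells sampled was not tested.

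The genes most like Alb and Afp in these lists were found among genes with the same number of peaks in each, by the distance between the percentages of the lists that scored below their top peaks. This likeness rests on 2 values per gene. Nearest to Alb among 350 such genes were Rbx1 on chromosome 15 (top scores 132 and 54, a distance of 1.37 percentage points), Slc3a2 on chromosome 19 (164 and 59, 1.49 points) and Ccdc9b on chromosome 2 (171 and 61, 1.86 points). Rbx1 codes for a ubiquitin ligase subunit and Slc3a2 for an amino acid transporter chain. All 3 had a far lower HEPA1-6 score than the 670 of Alb, because the percentage scale is compressed at its top. Nearest to Afp among 253 genes were BC004004 on chromosome 17 (55 and 31, 0 points), Rala on chromosome 13 (54 and 31, 0.32 points), a gene of a small GTPase, and Ppp1r12c on chromosome 7 (58 and 32, 1.97 points), a phosphatase subunit gene.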

How the data were processed

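Each source had 1 deposited peak list, with chromosome, start, end, name, score and strand. Per the submitters' processing notes, the tools included CASAVA 1.8.2, cutadapt, Bowtie2, bedtools, SAMtools and MACS2, with build mm10 (GRCm38). Their settings, the peak threshold, the libraries merged and the source of the strand are not given in the sources used here. The deposited score of a peak is a whole number of at least 10, and its scale is not stated. A deeper library or a laxer threshold yields more and wider peaks, so the lists, which differ in length, cannot show a difference in R-loop level.

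Peaks were assigned to RefSeq genes (GRCm38.p6) when they overlapped the gene body with 1 kb on both sides by at least 1 bp. Gene strands and starts came from RefSeq promoter windows. Overlapping windows of opposite strand were reverse complements in 1663 of 1663 cases. Interval counts were computed in Python 3.11.15 with pandas 2.3.3 and checked on simulated data and by brute force. The 95% Wilson intervals (scipy 1.17.1) given for promoter windows by G+C class cover counting error only, and other shares are printed without an interval. No test was run. The members were named whatever their values, along with neighbouring genes with a peak, up to 4 genes with the highest scores per list, and the 3 genes most like Alb and Afp. 1 gene of the regulator list is counted there but is not reported here by name. Genes without a peak in the lists were named as well, after their values were seen. The members and lists were chosen with earlier results of these data known. Alternatives were other flanks, the higher-scoring 50% of each list, equal numbers of peaks, stranded peaks only and other overlap rules.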

Additional observations from a re-analysis of the deposited data

How the results depend on the processing

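No paired analysis was possible because each source has 1 merged list, in which replicate numbers are lost, and for the same reason no replicate was left out. Of 141 alternative values for 37 results, 114 stayed within 1.5 times a count, at the same score or within the Wilson interval of a share. At least 16 of the alternatives could not differ, since equal numbers leave the liver list as it is by construction. For the covered share the interval takes each base as independent, which bases under 1 peak are not, so there it measures no spread. Alb and Afp held a peak in both lists with no flank, a 5 kb flank, the higher-scoring 50% and equal numbers of peaks. All their peaks have a strand, so the use of stranded peaks only could not change this. Afm and Gc held no peak in either list under any of these settings. Only the 5 kb flank could have given them one, since the other settings remove peaks or bases, so those values were fixed in advance. Afp held 1 liver peak without a flank and 1 in the higher-scoring 50%, where the space from Afp to Afm held 0 liver peaks. With an overlap of 50% of both peaks, 2 peaks of each list were shared. In the higher-scoring 50%, 1 gene for the handling of albumin and vitamin D held a liver peak.

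The covered share moves by construction with the flank. For HEPA1-6 it was 11.7% at Alb with 5 kb, and 23.8% and 24.1% at Afp with no flank and 5 kb. For the liver list it was 10.9% and 6.64% at Alb, and 1.29% and 6.32% at Afp. In the higher-scoring 50% it was 17.0% (HEPA1-6, also with equal numbers) and 1.16% at Afp. The background share of genes with a peak was 40.2% without a flank, 46.3% with 5 kb, 33.5% in the higher-scoring 50% and 34.0% with equal numbers in HEPA1-6. In the liver list it was 27.6%, 33.6% and 20.7% under the first 3 of these, and in both lists 25.8%, 31.4%, 19.3% and 26.0%. Unknown depth limits every statement that a gene held no peak.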

Other observations

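Peak edges coincided to the base at this locus. Of the 10 edges of the 5 overlapping pairs from Gc to Afm, 6 were at the same position in both lists, among them both edges of the first Alb peak and of the peak at the inner start of Ankrd17, the first edge of the first Afp peak and the last edge of the last Afp peak. Counted by pair, all of the 5 but the second Alb peaks shared at least 1 edge, and 2 shared both. Over all 11455 overlapping pairs, 46.1% shared at least 1 edge and 6.29% shared both. The 5 pairs are too few to set apart from these shares. The lists were called on separate precipitates per the peak names.

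The high GC skew upstream of Alb had few counterparts. Among promoter windows with under 50% G+C upstream, 446 had a skew of 0.3 or more, and 16 of these (3.59%) lay under a HEPA1-6 peak and 8 (1.79%) under a liver peak. With a skew of 0 to 0.3 the shares were 3.46% and 2.08%, and below 0 they were 4.51% and 2.54%. The shares lay close together, and the highest in each list was that of windows with a skew below 0. With 16 and 8 windows under a peak in the class of 0.3 or more, no order among the classes is read from this. The skew is that of bases before the annotated start, which the RNA begun there does not hold.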
